A study of Sus scrofa with 8 samples.

Results

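Antibody chains were read in whole blood through 89 probes whose description on the array names an immunoglobulin heavy or light chain, out of 43603 probes in all. The members were chosen by the wording of the description alone (immunoglobulin or Ig, a chain name, and chain, constant or variable), with receptors and other members of the immunoglobulin superfamily left out. The animals were 8 female Clawn miniature pigs aged 8 to 9 months. The 4 control animals ate standard dry feed, and the 4 others ate the same feed mixed with water and SDW in equal parts by weight; SDW is shochu distilled water, shochu being a Japanese spirit. Blood had been kept in PAXgene tubes, which fix the RNA of all blood cells, and each animal gave 1 array read in 1 colour. The design text gives 12 weeks of feeding, while the single descriptions run from 14 weeks (replicate 1) to 17 weeks (replicate 4) in either diet. The labels call the breed a conventional miniature pig in the sample fields, and no genetic change or further treatment is named for either diet.

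An antibody is built from paired heavy and light chains. B cells assemble the variable part of each chain by joining gene segments, and the joint itself, the third complementarity-determining region, differs from clone to clone. The constant part sets the class: mu and delta chains make IgM and IgD, which resting B cells carry together on their surface, and gamma chains make IgG, the main antibody of serum. Kappa and lambda are the alternative light chains. Plasma cells, the secreting descendants of B cells, hold far more antibody mRNA than resting B cells. In whole blood, fewer cells of a type and less RNA per cell cannot be told apart.

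By chain, 73 of the 89 probes stood for heavy chain variable regions or for heavy chains with no class given, 2 for mu, 2 for delta, 1 for gamma, 7 for kappa, 3 for lambda and 1 for a light chain of no stated type. The grouping had no class for alpha or epsilon chains, so a probe naming one would fall among these 73. The matched entry was of pig for 70 probes, of another species for 17 and of no named species for 2. A match to another species means that the probe stands for a pig transcript whose best match was that entry, often over a small part of its length.

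The probes for rearranged heavy chains carry letters of single sequenced clones, joined from segments that many of them share. Of the 65 heavy chain variable or unspecified probes with a pig entry or no named species, 40 (61.5%) hold the 10-base word ATGGATCTCT, found on 53 of all 43603 probes (0.122%). The commonest word that shares no run of 6 bases with it, GGTGCTAGTT, stands on 25 of the 65 (38.5%) and on 36 of all probes (0.0826%). Both strands were searched. Both words occur on 17 of the 65 probes and neither on 17 others. The word ATGGATCTCT starts at a median position of 48 of the 60 bases and GGTGCTAGTT at 22, while the letters around them differ from probe to probe. The probes below are those the results turn on, written 5′ to 3′ as the array files give them, with the shared words in capitals.
A_72_P180676 (clone IgMG1): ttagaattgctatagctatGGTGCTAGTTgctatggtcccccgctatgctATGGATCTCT
A_72_P169971 (clone IgMD3): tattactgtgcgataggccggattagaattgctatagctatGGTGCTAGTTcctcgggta
A_72_P186081: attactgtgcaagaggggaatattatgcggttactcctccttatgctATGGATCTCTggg
A_72_P185996: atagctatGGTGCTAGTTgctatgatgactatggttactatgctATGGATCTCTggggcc
A_72_P413908 (clone pvg5): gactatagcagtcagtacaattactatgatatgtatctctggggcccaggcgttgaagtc
A_72_P413968: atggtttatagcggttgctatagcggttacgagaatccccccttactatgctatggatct

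Most members were too dim to count as detected in any animal. Of the 89 probes, 62 (69.7%) were not well above background on any array, against 49.3% of all probes of the array. Another 14 were seen on 1 to 3 arrays, 3 of them in control animals only, 6 in SDW animals only and 5 in both diets. Of all 43603 probes, 22088 were seen on at least 1 array and 17355 on at least 4. The split by diet was not counted over all probes, so that of the 14 cannot be set against it. The 13 seen on at least 4 of the 8 arrays were tested (14.6%, against 39.8% of all probes). These were the mu and delta constant region probes, a gamma probe, 6 heavy chain variable or unspecified probes, 2 kappa and 2 lambda probes. A level here is the log2 intensity minus the 75th percentile of its array, so 0 is the level of that percentile. Levels are compared between animals for 1 probe at a time.

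The 8 arrays lay on 3 slides, each with both diets. Slide 1 held control 3, SDW 2 and SDW 3, slide 2 held control 2, control 4 and SDW 1, and slide 3, scanned on a second day, held control 1 and SDW 4. The share of all probes well above background ran from 35.2% in control 1 to 43.5% in SDW 2. Both slide 3 arrays lay above the other 6 arrays for 15.7% of all tested probes. For the slide 3 animals, slide and animal cannot be told apart.

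The constant region probes of the B cell receptor classes ranked the animals almost alike. The transcript of the delta probe matched 7% of its pig entry and that of the mu probe 19%, so their naming rests on a small part of those entries. The delta constant region probe (A_72_P020716) read 5.97, 3.48, 5.26 and 3.21 in control animals 1 to 4, and 3.54, 4.34, 3.85 and 4.69 in SDW animals 1 to 4. Control 1 and control 3 were the highest and control 4 the lowest, so that the controls spanned the SDW range. The mu constant region probe (A_72_P342498) read 1.44, -0.77, 0.77 and -1.66 in the controls and -0.32, 0.02, -0.64 and 0.84 in the SDW animals. Control 4 was again the lowest and control 1 the highest, and the diets overlapped. The other mu probe and the other delta probe were not well above background on any array.

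Over the 8 animals the mu and delta levels had a Pearson r of 0.94 (exact permutation p = 0.000422, two-sided) and a Spearman rho of 0.95 (exact permutation p = 0.00114). This pair was chosen after the values were seen, among 35 relations of the mu or delta probe with each other, the lambda probe, IgG and 15 B cell genes; adjusted over the 35 (Benjamini-Hochberg), the exact permutation p was 0.0148 for r and 0.0399 for rho. Without control 1 and control 4, the animals farthest from the median of mu, r was 0.91, and within slides it was 0.81. With quantile normalization r was 0.92 and the adjusted exact permutation p 0.0530. The adjusted exact permutation p of r was 0.139 without control 1, 0.0903 without control 2, 0.0625 without SDW 2 and 0.292 without slide 3, with r between 0.91 and 0.94. The order of the animals was the same for both probes within slide 1 and within slide 2.

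**Figure D1:**
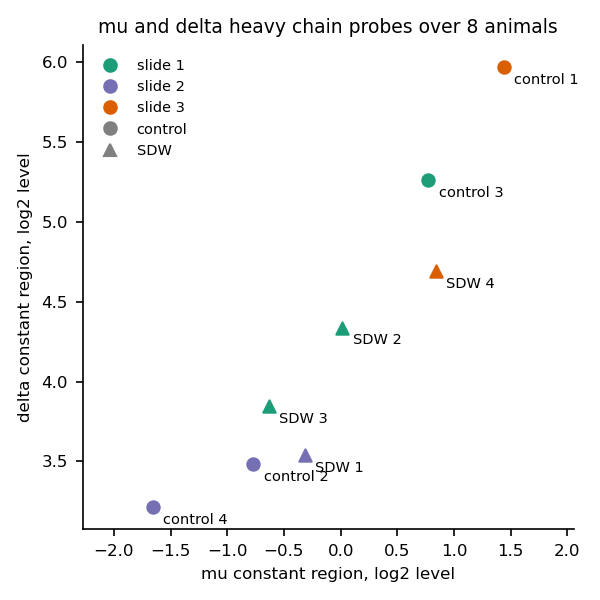
Log2 level of the mu constant region probe (horizontal) against the delta constant region probe (vertical), 1 point per animal, coloured by slide, circles for control and triangles for SDW. The animals run from control 4 (-1.66 and 3.21) to control 1 (1.44 and 5.97), with both diets along the same course.

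The 3 tested probes for rearranged heavy chains of pig, or of no named species, had SDs over the 8 animals of 1.23, 1.46 and 3.17, against 0.96 and 1.01 for the delta and mu probes. For the first and last of these 3, the SD includes animals not well above background. The probe for clone IgMG1 (A_72_P180676), described as a mutated heavy chain, read 4.47, -1.64, -1.14 and -0.50 in the controls and -2.74, -2.24, -0.14 and 5.85 in the SDW animals. Control 1 and SDW 4, the slide 3 animals, stood above all others, while SDW 1 was not well above background. With SDW 1 at its dim value, 0.0288% of all tested probes had a larger SD over the animals. The clone IgMD3 probe (A_72_P169971) shares a run of 29 bases with it, up to the end of GGTGCTAGTT, and read -3.97 in control 1 and -3.92 in SDW 4, not well above background in either. It was detected in SDW 2 only, at -2.74.

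The probe for clone pvg5 (A_72_P413908), a heavy chain variable VDJ region, read -0.54, -2.25, -2.01 and -2.85 in the controls and -4.47, -2.07, -1.75 and -0.75 in the SDW animals. It was well above background in control 1, SDW 2, SDW 3 and SDW 4 and again highest in the slide 3 animals. The probe A_72_P413968, a VDJ region with no species named, had another order: -0.97, 0.30, 2.02 and 1.15 in the controls and -2.38, 0.02, 1.61 and -0.66 in the SDW animals. Control 3 and SDW 3, both on slide 1, were the highest there, and SDW 1 the lowest.

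**Figure D2:**
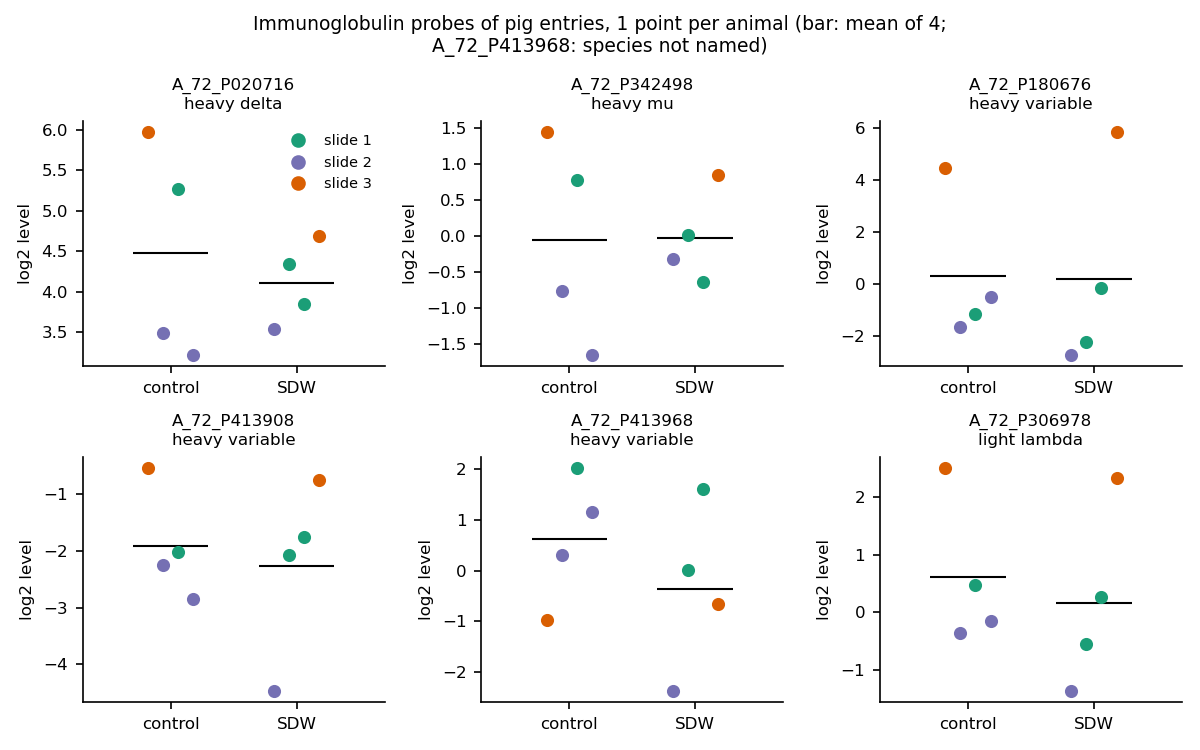
Log2 level of the 6 tested probes with a pig entry or no named species, 1 point per animal, by diet and coloured by slide, with a bar at the mean of 4 animals. Both slide 3 animals lie above all 6 others for A_72_P180676, A_72_P413908, A_72_P306978 and A_72_P342498, and the diets overlap in every panel.

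Several rearranged heavy chains were detected in 1 animal alone. Of the 65 probes, 12 were seen on at least 1 array and 7 of these in a single animal: 3 in control 1, 2 in SDW 3 and 1 each in SDW 2 and SDW 4. The share of all probes of the array seen in a single animal was not counted, so the 7 cannot be set against it. A_72_P186081 read 2.83 in control 1, against -4.08 or less in the other 7 animals. A_72_P185996 read 0.42 in control 1, against -4.03 or less elsewhere. These 2 probes were chosen after their values were seen; the longest run of bases that they share with any other of the 65 probes is 20 and 27 bases. The rest of the 7 were dimmer in their animal, from -2.74 (A_72_P169971 in SDW 2) to -1.37 (A_72_P413893 in control 1). For some of these, an animal not well above background came close. A_72_P186016 read -1.88 in SDW 3 and -2.08 in control 1, and A_72_P413943 -1.50 in SDW 4 and -2.25 in control 3. A_72_P413893 read -2.24 in SDW 4, whereas A_72_P169971 read -3.92 or less outside SDW 2. In all, control 1 had 8 of the 65 probes well above background (12.3%), SDW 4 had 6, SDW 2 and SDW 3 had 5 each, and the other 4 animals 2 each. Control 1 was thus first in this count and last in the share of all probes well above background (35.2%). Clones that are not on the array were not measured.

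**Figure D3:**
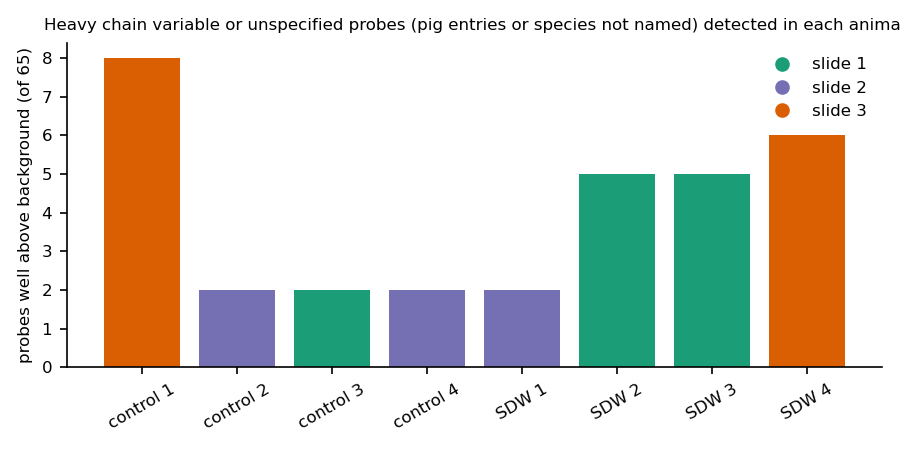
Number of the 65 heavy chain variable or unspecified probes (pig entry or no named species) that were well above background in each animal, coloured by slide. Control 1 has 8 and SDW 4 has 6, while control 2, control 3, control 4 and SDW 1 have 2 each.

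Among light chains, the pig lambda probe (A_72_P306978), whose transcript matched 72% of its pig entry, read 2.49, -0.35, 0.47 and -0.15 in the controls and -1.37, -0.56, 0.27 and 2.33 in the SDW animals. The slide 3 animals were again the highest and SDW 1 the lowest. In all, both slide 3 animals lay above the other 6 for 4 of the 13 tested members, against the 15.7% of all tested probes given above. None of the 3 pig kappa probes was seen on 4 arrays; 2 of them were seen on 1 or 2 arrays and 1 on none. The tested kappa probes were both matched to other species. A_72_P188446, matched to a human variable region, read 1.08, 1.12, 1.69 and 1.65 in the controls and 1.50, 0.92, 0.15 and 1.38 in the SDW animals, with SDW 3 lowest. A_72_P209522, matched to a mouse VJ region, read -2.18, -0.48, -1.11 and -0.62 in the controls and -0.05, -1.18, -0.20 and -3.00 in the SDW animals, so that here the slide 3 animals were the lowest and not well above background.

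Marker genes of other blood cells were summarised as the list median of each gene's deviation from its own mean. Both slide 3 animals lay below the other 6 in the platelet list and, for control 1 only barely, in the T cell list. The neutrophil list (4 of 10 genes tested: LTF, MMP9, TREM1 and NCF1) stood at 1.51 in control 1 and 0.14 in SDW 4, against -0.87 to 0.31 in the other animals. The T cell list (6 of 10 tested) stood at -0.2013 in control 1 and -0.63 in SDW 4, against -0.2002 to 0.30. The monocyte list (4 of 5 tested) stood at 0.06 and -0.15, against -0.46 to 0.45. The platelet list (3 of 6 tested) stood at -0.65 and -0.42, against 0.08 to 0.47. Of 7 plasma cell markers only PRDM1 was tested, at 0.49 in control 1 and -0.09 in SDW 4. Their part in the antibody chain levels was not tested.

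The light chain classes hold 2 tested probes each, and these disagree in the slide 3 animals. The pig lambda probe was highest there, whereas A_72_P066386 had its lowest values there, 2.94 and 2.95. Of the kappa probes, A_72_P209522 was lowest there and not well above background, whereas A_72_P188446, at 1.08 and 1.38, lay within the range of the others. Their medians therefore follow the probe of larger spread: the lambda median stood at 0.89 in control 1 and 0.81 in SDW 4, against -0.65 to 0.10 elsewhere, and the kappa median at -0.59 and -0.85, against -0.17 to 0.68. The heavy variable class was mixed too. It held 3 probes of pig or no named species (SD 1.23 to 3.17) and 3 matched to other species (0.21 to 0.39). With the slide 3 animals apart, classes were related only over the 6 animals of slides 1 and 2, as 3 pairs. The heavy variable and lambda medians had a Pearson r of 0.89 (exact permutation p = 0.0139, 0.0417 adjusted over 3) and a Spearman rho of 0.77 (exact permutation p = 0.103, 0.204 adjusted). This relation did not hold with normexp background correction, where r was -0.27. Leaving out any 1 of the 6 animals gave r from 0.74 to 0.95 and adjusted exact permutation p-values from 0.0833 to 0.300. Without SDW 1 and SDW 3 r was 0.93 over 4 animals, and within slides 0.82. The heavy variable and kappa medians gave r = -0.65 (exact permutation p = 0.168, 0.252 adjusted) and rho = -0.37 (p = 0.497, 0.497 adjusted, exact permutation), and r turned to 0.38 without SDW 1 and SDW 3. The kappa and lambda medians gave r = -0.54 (exact permutation p = 0.267, 0.267 adjusted) and rho = -0.71 (p = 0.136, 0.204 adjusted, exact permutation), with r at -0.63 without SDW 1 and SDW 2 and at 0.22 within slides.

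Most probes matched to other species varied less between animals than those of pig entries, without a test of that difference. The SD over the 8 animals ran from 0.96 to 3.17 for the 6 tested probes with a pig entry or no named species (median 1.30), and from 0.21 to 1.02 for the 7 matched to another species (median 0.30). The median over all tested probes was 0.42. The gamma probe (A_72_P317088), matched to 18% of a llama variable region, read 4.36, 4.50, 4.31 and 4.45 in the controls and 5.06, 4.45, 4.20 and 4.64 in the SDW animals, a narrow range with SDW 1 highest. It did not follow the tested IgG heavy chain probes described below, whose mean was near its lowest in SDW 1. Their SDs ran from 0.63 to 0.98, against 0.26 for the gamma probe. The lambda probe matched to echidna (A_72_P066386) read 2.94, 3.20, 3.38 and 3.05 in the controls and 3.73, 3.49, 3.39 and 2.95 in the SDW animals. SDW 1 was the highest and control 1 the lowest, the reverse of the pig lambda probe. None of the 17 members matched to another species held either shared heavy chain word.

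A_72_P209287, matched to a mouse heavy chain precursor, read 6.03, 5.56, 6.05 and 5.51 in the controls and 5.46, 5.80, 5.85 and 6.30 in the SDW animals. A_72_P324128, matched to a rearranged human heavy chain, read 0.12, 0.12, -0.51 and -0.38 in the controls and 0.62, -0.12, 0.13 and 0.47 in the SDW animals. A_72_P057711, matched to a mouse heavy chain, read 1.56, 1.53, 1.41 and 1.79 in the controls and 1.56, 1.43, 1.04 and 1.44 in the SDW animals. The diets overlapped for all 3.

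**Figure D4:**
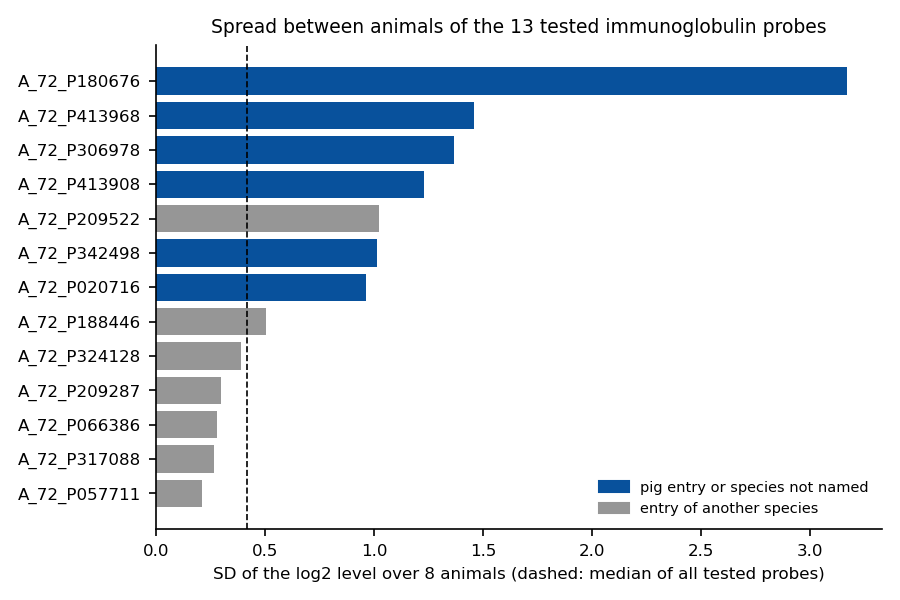
SD of the log2 level over 8 animals for the 13 tested probes, blue for a pig entry or no named species and grey for another species, with a dashed line at 0.42, the median of all tested probes. A_72_P180676 reaches 3.17, and 5 of the 7 grey bars end short of the line.

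SDW animals were set against controls to see what the feed does to transcripts in blood. No antibody chain probe passed the threshold between the diets. The limma fit across all 17355 tested probes, with Benjamini-Hochberg adjustment, called 0 of the 13 members, and 0 probes in all (0%), at an adjusted p under 0.05; no adjusted p was below 1.00 after rounding. At an unadjusted p under 0.05, limma gave 0 of the 13 members, against 251 of all probes (1.45%). Animals of the diets did not overlap for 0 of the 13, against 0.985% of all probes. Of the 13 members, 5 had a higher mean in SDW animals and 8 a lower one; the median difference, SDW minus control, was -0.12, against 0.02 over all tested probes. The absolute difference had a median of 0.25 for the members and 0.17 for all tested probes.

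In controls the delta probe averaged 4.48 ± 1.34 and on SDW 4.10 ± 0.51 (SD, n = 4 each). The difference was -0.38 (standard error 0.59). Without control 1 it was 0.12. The mu probe averaged -0.05 ± 1.41 and -0.02 ± 0.63 (SD, n = 4 each), and the difference was 0.03 (standard error 0.63). The pig lambda probe averaged 0.62 ± 1.30 and 0.17 ± 1.59 (SD, n = 4 each), and the difference was -0.45 (standard error 0.82). Without control 1 that difference was 0.18. The clone IgMG1 probe averaged 0.30 ± 2.82 and 0.18 ± 3.94 (SD, n = 4 each), and the difference was -0.12 (standard error 1.90). Here a single animal moved the difference most: it was 1.27 without control 1 and -2.00 without SDW 4.

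Among the members, A_72_P413968 had the largest difference, -0.98 (standard error 0.83, adjusted p = 1.00 in limma). It was -0.30 without SDW 1, -1.63 without SDW 3 and -0.40 with normexp. Without SDW 4, A_72_P180676 (-2.00) had a larger difference. The smallest p belonged to A_72_P324128, with a difference of 0.44 (standard error 0.26, adjusted p = 1.00 in limma). With slide as a fixed block, limma gave 4 of the 13 members an unadjusted p under 0.05, against 6.60% of all tested probes, and none an adjusted p under 0.73. These were the delta probe (difference -0.70), the pig lambda probe (-0.67), A_72_P413968 (-1.48) and A_72_P324128 (0.56). Within slides 1, 2 and 3 the delta difference was -1.17, 0.19 and -1.27, and the lambda difference -0.62, -1.12 and -0.16. A_72_P413968 had -1.20, -3.10 and 0.31, and A_72_P324128 had 0.52, 0.75 and 0.35.

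**Figure D5:**
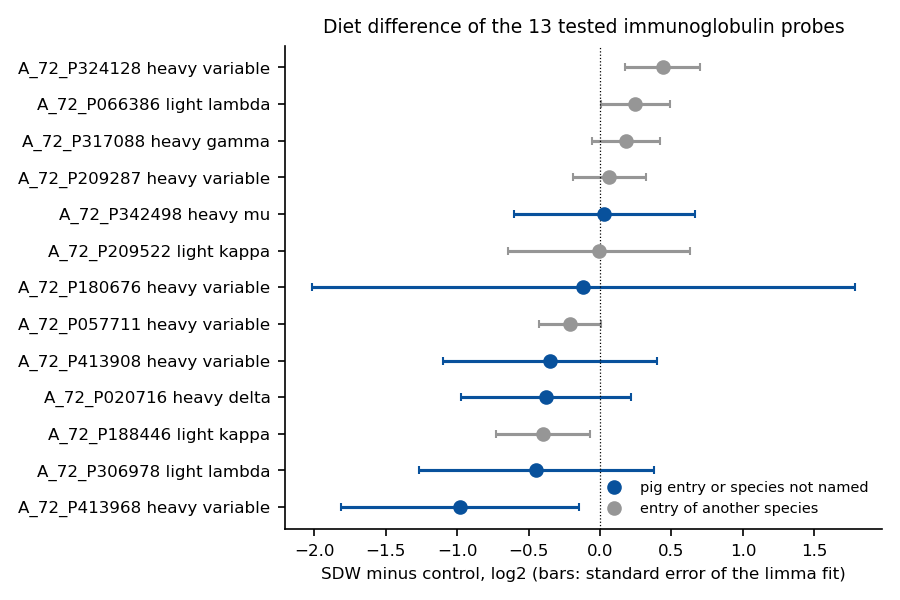
Difference of the mean log2 level, SDW minus control, for the 13 tested probes, with bars of 1 standard error from the limma fit; blue marks a pig entry or no named species and grey another species. Differences run from -0.98 to 0.44, and the longest bar is that of A_72_P180676, with a standard error of 1.90.

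The probes for IgG, 8 in number, fall outside the rule, since their description writes IgG where the rule asks for immunoglobulin or Ig. Of these 8, 7 were well above background on all arrays, and their mean level was 4.68, 3.82, 3.49 and 2.83 in the controls and 2.86, 4.48, 3.24 and 4.24 in the SDW animals. Control 1 and SDW 2 had the most and control 4 and SDW 1 the least. The means of the diets were 3.71 ± 0.77 and 3.70 ± 0.78 (SD, n = 4 each), and limma called 0 of the 7, the differences of single probes lying between -0.08 and 0.12. Both slide 3 animals were highest for 3 of the 7 (A_72_P186485, A_72_P170130 and A_72_P422633), whereas A_72_P152696 was highest in SDW 2, at 7.97. Over the 21 pairs of these probes, r across animals ran from 0.34 to 0.99; they share the gene and the arrays. The mean IgG level had r = 0.71 and rho = 0.74 with mu (exact permutation p = 0.0520 and 0.0458, 0.158 and 0.224 adjusted over 35), and r fell to 0.36 without control 1 and control 4. Another 10 probes with other antibody descriptions also fall outside the rule. Among them A_72_P236777, highest in both slide 3 animals, and A_72_P120176, highest in control 2, were well above background on all 8 arrays. limma called neither.

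Genes of B cells and of antibody secretion likewise showed no difference between the diets past the threshold. Of a list of 51, 18 were named on the array and 15 were tested; 5 had a higher and 10 a lower mean in SDW animals, 0 were called by limma, 0 had an unadjusted p under 0.05, and the median difference was -0.06. TNFSF13 (APRIL), a survival factor of plasma cells, had the smallest p of the list (difference 0.43, standard error 0.25). CD40, the receptor for T cell help, had a difference of -0.39 (standard error 0.30), and SYK, a kinase downstream of the B cell receptor, -0.45 (standard error 0.30). LYN, another such kinase, differed by -0.04, FCGR2B, the inhibitory IgG receptor, by -0.04, and VPREB1, part of the surrogate light chain, by 0.13. FCGRT, which protects IgG from breakdown, differed by 0.16, while its other tested probe gave -0.72. HSPA5, a chaperone of antibody folding, differed by 0.16 and EDEM1, which acts in the disposal of misfolded proteins, by 0.08; the other EDEM1 probe gave -0.02.

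Across the 8 animals, 0 of the 30 relations of these 15 genes with the mu or the delta probe passed an adjusted exact permutation p of 0.05.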

How the data were processed

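The authors deposited linear spot intensities from the scanner. Their software was Agilent Feature Extraction; the file headers name version 10.1.1.1 and the submitters' processing notes version 9.5.3.1. Background was subtracted within each array and nothing was normalized between arrays, per the file headers. Intensities without control and outlier spots were averaged per probe and taken as log2 minus the 75th percentile of the array. Probes well above background on at least 4 of 8 arrays were tested with limma 3.58.1 in R 4.3.3 (lmFit, eBayes, two-sided, Benjamini-Hochberg, threshold 0.05), which was tested on simulated data. Exact permutation tests over animals were two-sided. The number of arrays limits the precision, and p-values measure the spread between these animals.

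The members, lists and named probes were chosen with earlier results of these data known. Named were, in each chain class, the tested probes of highest mean, smallest p and largest SD, and from the B cell list up to 8 genes of highest mean and 4 of smallest p; the other tested members, the IgG probes and the probes seen in 1 animal were added. Of the genes this rule names, 1 is not reported here. A gene was read from its tested probe of highest mean. In the authors' value table of normalized intensities, 7 of 8 columns matched another replicate's scanner file of the same diet. Replicate names follow the scanner files, except for the class median relations with the value table, which went by the column labels. Probe positions were not determined, since no genome was used. The alternatives were quantile and median normalization, normexp (offset 50), the value table, other filters, slide and replicate as blocks, a variance trend, outlier spots kept, each array left out and, added after seeing the data, slide 3 left out.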

Additional observations from a re-analysis of the deposited data

Results flagged for a closer look

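In 78 groups of 4 animals examined for a value far from the other 3, 4 were found. Chance gives about 1 in 20, a share close to that found. A_72_P186081 in control 1 read 2.83 and A_72_P185996 in control 1 read 0.42, both rearranged heavy chains detected in that animal alone. Both were among the probes added because they were seen in 1 animal. A lone value was thus fixed beforehand for them, and the chance share does not apply to them. The IgG heavy chain probe A_72_P152696 read 7.97 in SDW 2, above the other SDW animals. CD40 read 4.44 in SDW 3, below the other SDW animals.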

How the results depend on the processing

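limma called 0 of the immunoglobulin probes under each of the 21 other fits, and 0 probes in all except without slide 3, where it called 1; at an unadjusted p under 0.05 the members numbered 0 to 4. The median member difference lay between -0.31 (without control 4) and 0.15 (without control 1) when an array was left out and between -0.28 and -0.03 in the other fits, and was -0.18, 0.11 and 0.01 within slides 1, 2 and 3. For the B cell list it ran from -0.26 to 0.11 with an array left out, and was -0.47 within slide 1 and 0.40 within slide 2. Signs of small differences turned. With normexp they were -0.071 (A_72_P342498), 0.13 (A_72_P180676), 0.087 (A_72_P209522) and 0.031 (FCGR2B). With slide as a fixed block they were -0.23 (A_72_P342498), -0.034 (A_72_P209287), 0.11 (A_72_P209522) and 0.018 (LYN), and with slide as a random block -0.12 (A_72_P342498) and 0.062 (A_72_P209522). A_72_P209522 stood at 0.025 with array medians. Without slide 3 they were -0.0015 (A_72_P209287), 0.26 (A_72_P209522), 0.063 (FCGR2B) and 0.063 (LYN). With an array left out the ranges were -0.80 to 0.12 (A_72_P020716), -0.51 to 0.53 (A_72_P342498), -2.00 to 1.27 (A_72_P180676), -0.083 to 0.20 (A_72_P209287), -0.85 to 0.39 (A_72_P413908), -0.37 to 0.62 (A_72_P209522), -1.17 to 0.18 (A_72_P306978), -0.050 to 0.21 (EDEM1), -0.26 to 0.23 (FCGR2B), -0.27 to 0.068 (LYN) and -0.33 to 0.60 (VPREB1), and A_72_P413968, whose sign held, ran from -1.63 to -0.30. The r of mu with delta was 0.92 with quantile normalization, 0.91 with the value table and 0.91 without slide 3, each with the adjusted exact permutation p above the threshold, and 0.92 to 0.96 with an array left out. The r of heavy variable with lambda medians was 0.86 with quantile normalization and -0.27 with normexp, and 0.74 to 0.95 with an array left out. With the value table it was 0.55, over the columns labelled as animals of slides 1 and 2. By their match to scanner files, these columns take in control 1 of slide 3 and leave out control 3, so the animals differ. With array medians, r was -0.90 for heavy variable with kappa and -0.87 for kappa with lambda. The adjusted exact permutation p was then 0.025 and 0.0278, below the threshold, which neither relation passed in the other settings. The causes were not tested. Same-numbered animals had deviations correlated at -0.17, 0.11, 0.33 and -0.38, so the numbers are not shown to pair them; with the replicate block limma called 0 members, the median stayed at -0.12, and 1 member had an unadjusted p under 0.05. Dim probes limit what can be said of 62 members.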
